A study of Mus musculus with 12 samples.

Results

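The lysosomal genes described here are 43 of the 54532 genes in the count table of 12 mouse lung samples, chosen by symbol as a list of lysosomal hydrolases, membrane proteins, V-ATPase subunits and related factors. They comprise 21 hydrolases, 2 soluble cofactors, 7 membrane proteins, 11 proton pump genes and 2 transcription factors, and all 43 had enough counts to be tested. Bulk RNA sequencing had been run on whole lung from 6 controls and 6 samples with acute lung injury (ALI). The series design names drowning in seawater as the injury and its title names the intestinal flora. The labels give only control or acute lung injury for each sample. Strain, age, exposure dose, time after exposure and the treatment of the controls are not stated there. Whether each sample is a separate animal is not stated either, so p-values reflect sample-to-sample spread that could be technical.

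The lysosome is the acidic organelle in which cells break down material taken up from outside or delivered by autophagy. Its hydrolases are made in the endoplasmic reticulum, receive a mannose phosphate tag and are carried to the organelle by receptors, while heavily glycosylated membrane proteins line it and transporters export the breakdown products. The V-ATPase acidifies it, with a peripheral sector, V1, that splits ATP and a membrane sector, V0, that moves protons. Many lysosomal genes share a promoter element, CLEAR, bound by transcription factors of the MiT/TFE family such as TFEB. In the lung, alveolar macrophages are rich in lysosomes, and alveolar type 2 cells store surfactant in lamellar bodies, which are related organelles.

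In ALI 34 of the 43 lysosomal genes rose, 0 fell and 9 did not pass the test, where 36.6% of all 16185 genes tested were called, 18.9% higher and 17.7% lower (edgeR quasi-likelihood test, adjusted p under 0.05 over all genes). Levels are counts scaled to library size (CPM), and changes are log2 fold changes of ALI against control. The median change was 0.67 over the 43 genes, with quartiles of 0.37 and 1.21, and -0.058 over all genes, with quartiles of -0.36 and 0.25. A rise of at least 2-fold was called for 13 of the 43 genes (8% of all genes) and a fall of that size for 0 (3.7% of all genes). In 29 every ALI sample lay above every control (13.1% of all genes), and in 0 every ALI sample lay below (8.25% of all genes). In bulk tissue, more cells of a type and more RNA per cell cannot be told apart. At an unadjusted p under 0.05, 1 of the 43 genes, the sulfatase gene Ids, was lower. DESeq2's Wald test called 0 lower and limma-voom 1, again Ids.

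Counts were taken for each class, and differences between classes were not tested. They stand beside 18.9% of all genes called higher and 8% called at least 2-fold higher. Among hydrolases 19 of 21 rose, with a median change of 0.89, and 9 of them at least 2-fold. Both soluble cofactors and 6 of 7 membrane proteins rose, the latter with a median of 0.45. Of the pump genes 6 of 11 rose, with a median of 0.46, and none reached 2-fold. The MiT/TFE factors came to 1 of 2. The plot of fold changes shows the span within each class, from the lowest value of -0.29 (Ids) to the highest of 2.79 (Cd68).

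**Figure D1:**
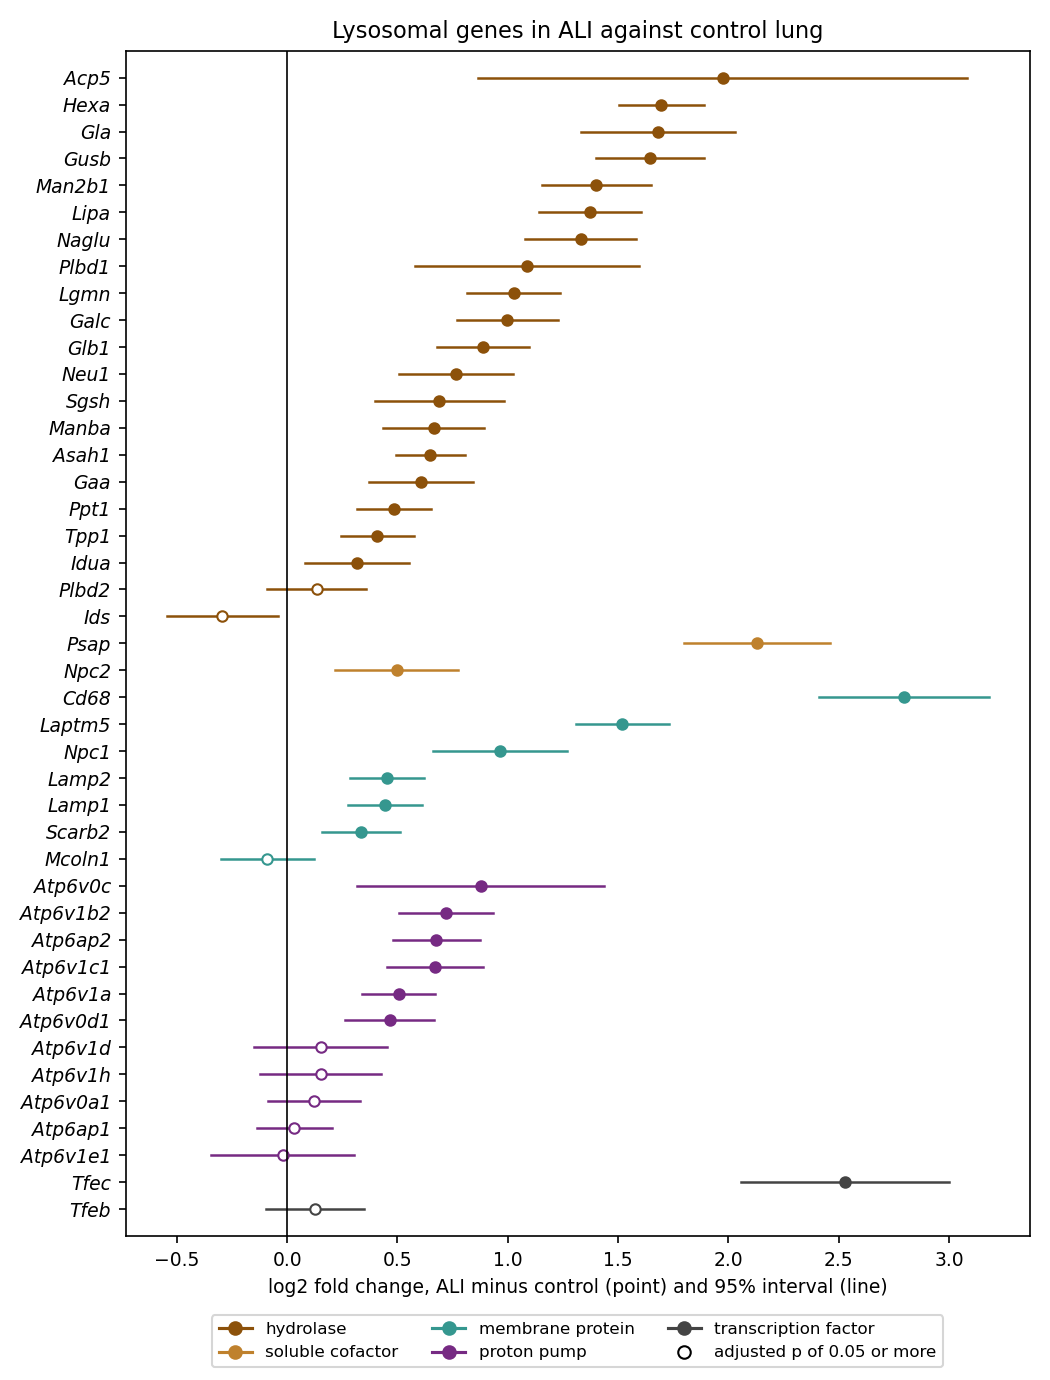
Log2 fold change of ALI against control (x axis) for each of the 43 lysosomal genes (y axis), with points for the edgeR estimate and lines for its 95% interval over 6 against 6 samples. Colours mark the class, and open points have an adjusted p of 0.05 or more; 19 of 21 hydrolases and 6 of 11 pump genes are filled, all to the right of 0.

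Sequence upstream of the start sites was read for 37 of the 43 genes, with 45 promoters from 250 bases before to 50 after the start (RefSeq, GRCm38.p6). The E-box CACGTG, which is the core of the CLEAR element and reads the same on both strands, was in 11 of the 45 promoters (24.4%) and in 7.15% of 32851 promoters of all genes. All 11 also held the longer TCACGTG, searched on both strands and by its letters overlapping the E-box, which was in 3.77% of all promoters. The full palindromic CLEAR element, a longer form of the E-box, was in 0 of the 45 and 0.33% of all promoters. GAGGAAGT, the core bound by PU.1 of macrophages, was in 4.4% and 3.2%, and the AP-1 site TGANTCA in 11.1% and 7.81%, both searched on both strands. The stretches with E-boxes of 6 genes from 3 classes are shown because they carry the most sites or belong to genes described later, 5′ to 3′ on the gene's strand, with the E-box in capitals.
Lamp1, chr8:13159088-13159160, plus strand, bases -73 to -1 from the start site: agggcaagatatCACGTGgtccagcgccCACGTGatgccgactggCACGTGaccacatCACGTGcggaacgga
Mcoln1, chr8:3500436-3500491, plus strand, bases -83 to -28 from the start site: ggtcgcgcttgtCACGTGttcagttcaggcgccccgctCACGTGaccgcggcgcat
Gla, chrX:134601182-134601244, minus strand, bases -239 to -177 from the start site: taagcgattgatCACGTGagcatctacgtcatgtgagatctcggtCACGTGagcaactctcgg
Naglu, chr11:101070009-101070038, plus strand, bases -85 to -56 from the start site: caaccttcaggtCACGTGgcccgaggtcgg
Glb1, chr9:114401018-114401047, plus strand, bases -60 to -31 from the start site: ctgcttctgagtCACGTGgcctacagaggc
Atp6v1a, chr16:44139373-44139402, minus strand, bases -143 to -114 from the start site: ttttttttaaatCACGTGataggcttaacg

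Lamp1 held 4 E-boxes within 61 bases of its start, and Gla and Mcoln1 held 2 each. The genes with an E-box were Atp6v0d1, Atp6v1a, Gaa, Gla, Glb1, Lamp1, Lgmn, Mcoln1, Naglu, Plbd1 and Sgsh. They were 7 of the 19 hydrolases with a promoter, 2 of the 6 membrane proteins and 2 of the 8 pump genes. Of the 30 genes called higher that had a promoter, 10 held an E-box, as did 1 of the 7 not called, Mcoln1. These are matches of letters, and binding was not measured.

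The enzymes of glycosphingolipid and ceramide breakdown rose together, 6 of 6, with every ALI sample above every control for each. Over all genes 18.9% were called higher, and 13.1% had every ALI sample above every control. Hexa (ENSMUSG00000025232, chr9:59539540-59565109, plus strand, GRCm38), the alpha subunit of the hexosaminidase that trims gangliosides, ranged from 89.4 to 111 CPM in controls (median 96.1) and from 274 to 361 CPM in ALI (median 317). The groups did not overlap, ALI 3 was the lowest ALI sample, and the change was 1.70 ± 0.090 (SE, adjusted p = 3.07e-08). By p-value Hexa ranked 14 of the 16185 genes tested. Hexa shares 12.8% of its exon bases with Tmem202 on the opposite strand, and the strand setting of the counting is not stated, so its value is uncertain. Gla (ENSMUSG00000031266, chrX:134588149-134601125, minus strand), the galactosidase that cleaves globo-series lipids, ranged from 9.82 to 16.6 CPM in controls (median 14.2) and from 35.4 to 59.0 CPM in ALI (median 40.3). Its groups did not overlap, ALI 4 and ALI 5 were highest, and its change was 1.68 ± 0.16 (SE, adjusted p = 1.91e-06). Galc, which removes galactose from galactosylceramide, rose from 25.1 ± 4.25 to 50.2 ± 3.50 CPM, and Glb1, the beta-galactosidase, from 25.8 ± 1.27 to 47.6 ± 6.76 CPM. Neu1, a sialidase, changed by 0.77 and Asah1, acid ceramidase, by 0.65. Among these 6 genes the controls of Asah1 were the tightest, at a coefficient of variation of 2.76%.

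Of the 5 enzymes of glycosaminoglycan breakdown 4 rose. Gusb (ENSMUSG00000025534, chr5:129989011-130003049, minus strand), the beta-glucuronidase, rose 3.13-fold, from 54.3 ± 4.62 to 169.8 ± 29.3 CPM (SD, n = 6 each), a change of 1.64 ± 0.11 (SE, adjusted p = 1.26e-07). Naglu, an exo-enzyme of heparan sulfate breakdown, rose from 34.4 ± 2.79 to 86.6 ± 16.1 CPM, and Sgsh, the sulfamidase of the same pathway, from 44.0 ± 8.13 to 71.0 ± 11.5 CPM. For these 3 genes no ALI sample reached down to a control. Sgsh shares 21.6% of its exon bases with Card14 on the opposite strand, so its value is uncertain for the same reason. Smaller overlaps of that kind, 5.31 to 9.31% of exon bases, touch Lamp1, Acp5, Idua, Plbd2 and Npc1. Those of Ppt1 (3.51%), Galc (2.69%), Atp6v1h (1.3%) and Atp6v1e1 (0.78%) are smaller still. Glb1 shares 5.49% of its exon bases with Tmppe on the same strand. Idua, the iduronidase, rose by 0.32 ± 0.11 (SE, adjusted p = 0.0352) with overlapping groups, and its call was lost under 11 of the alternatives. Ids (ENSMUSG00000035847, chrX:70343069-70365084, minus strand), which removes sulfate from iduronate, ranged from 154 to 268 CPM in controls (median 246) and from 171 to 200.2 CPM in ALI (median 189). It was the hydrolase with the lowest change, -0.29 ± 0.12 (SE, adjusted p = 0.0654), a 95% interval of -0.55 to -0.042. Control 5 was the lowest control for Ids at 154 CPM, and without it the change was -0.39 (adjusted p = 0.000354).

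The 3 sugar enzymes of glycogen and glycoproteins rose without overlap. Man2b1, the alpha-mannosidase, rose from 143 ± 17.8 to 377 ± 53.6 CPM, a change of 1.40 ± 0.12 (SE, adjusted p = 4.51e-07). Manba, the beta-mannosidase, changed by 0.66, and Gaa, which releases glucose from glycogen, by 0.61. The proteases Lgmn, an asparaginyl endopeptidase, and Tpp1, a tripeptidyl peptidase, changed by 1.03 and 0.41. Ppt1, which strips palmitate from proteins, changed by 0.48, and all 3 of these genes were also without overlap.

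Lipa, the acid lipase that frees cholesterol and fatty acids from lipoproteins, rose from 105 ± 10.9 to 271 ± 39.9 CPM, a change of 1.37 ± 0.11 (SE, adjusted p = 3.15e-07), with no overlap. Plbd1 and Plbd2 encode related phospholipase B-like proteins. Plbd1 ranged from 32.7 to 91.9 CPM in controls (median 35.2) and from 83.8 to 101 CPM in ALI (median 95.4), and control 5, at 91.9 CPM, lay within the ALI range while the other 5 controls did not exceed 38.5 CPM. The change of Plbd1 was 1.09 ± 0.23 (SE, adjusted p = 0.00251), and 1.43 without control 5. Plbd2 ranged from 75.1 to 112 CPM in controls (median 103) and from 84.4 to 118 CPM in ALI (median 111), with overlapping groups and a change of 0.13 ± 0.10 (SE, adjusted p = 0.346), 95% interval -0.091 to 0.36. Acp5 (ENSMUSG00000001348, chr9:22126727-22135711, minus strand), the tartrate-resistant acid phosphatase known from osteoclasts and macrophages, ranged from 11.3 to 71.0 CPM in controls (median 13.3) and from 47.4 to 128 CPM in ALI (median 87.5). Control 5 held 71.0 CPM and the other 5 controls 11.3 to 15.2 CPM, so that only control 5 overlapped the ALI samples. The change of Acp5 was 1.97 ± 0.50 (SE, adjusted p = 0.00933), the widest interval of the hydrolases (0.87 to 3.08), and 2.76 without control 5.

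Control 5 stood apart in other ways. Its summed level of 6 adipose tissue markers was 4714 CPM and that of ALI 2 was 534 CPM, against 0.528 to 19.3 CPM in the other 10 samples. It was the lowest control for 21 of the 43 lysosomal genes and the highest for 10. Without control 5, 36 of the 43 genes were called higher and 1 lower, and without both samples 35 and 1. The part of adipose tissue in the values of single genes was not tested. The map of levels by sample shows control 5 as a column of its own among the controls.

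**Figure D2:**
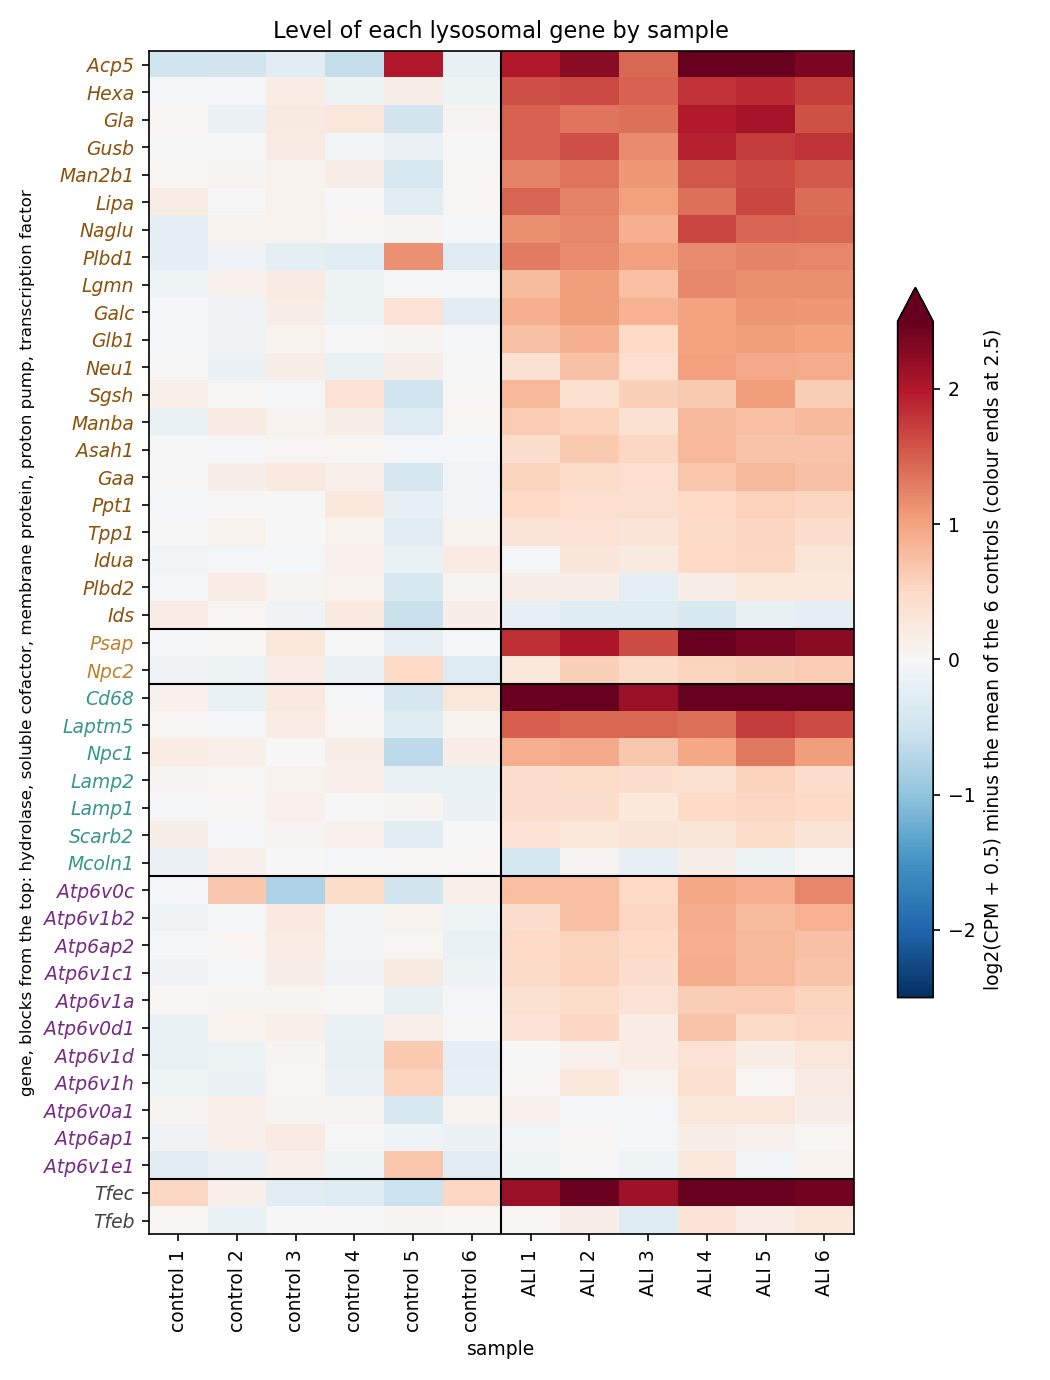
Level of each lysosomal gene (y axis, in blocks by class) in each of the 12 samples (x axis), as log2(CPM + 0.5) minus the mean of the 6 controls, with colour ending at 2.5. The ALI columns are red for most hydrolases and for Psap, Cd68, Laptm5 and Tfec, and control 5 is the only control that is red for Acp5 and Plbd1.

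Psap (ENSMUSG00000004207, chr10:60277627-60302597, plus strand) encodes prosaposin, which is cut into the saposins that present sphingolipids to their hydrolases, and had the highest level per length of the 43 genes in both groups. It ranged from 869 to 1203 CPM in controls (median 989) and from 3093 to 5753 CPM in ALI (median 4418). The groups did not overlap, and the lowest ALI sample, ALI 3, held more than any control. The rise was 4.38-fold, a change of 2.13 ± 0.15 (SE, adjusted p = 1.69e-07). Psap made up 13.5 to 17% of the summed CPM of the 43 genes in controls and 28.6 to 38.6% in ALI. Without Psap, the sum of the others was 5158 to 5889 CPM in controls and 7714 to 9531 CPM in ALI. Npc2 (ENSMUSG00000021242, chr12:84754562-84773152, minus strand), which binds cholesterol in the lumen and passes it to the membrane protein Npc1, ranged from 610.4 to 1071 CPM in controls (median 709) and from 912 to 1179 CPM in ALI (median 1131). Its groups overlapped through control 5, the highest control, and its change was 0.50 ± 0.13 (SE, adjusted p = 0.00776), or 0.61 without control 5.

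Of the membrane proteins Cd68, Laptm5 and Npc1 had the largest changes. Cd68 (ENSMUSG00000018774, chr11:69664213-69666153, minus strand), a glycoprotein of macrophage lysosomes, ranged from 19.0 to 31.3 CPM in controls (median 26.2) and from 117 to 233 CPM in ALI (median 189). Its groups were fully apart, ALI 3 was lowest and ALI 5 highest among ALI samples, and the rise was 6.94-fold, a change of 2.79 ± 0.18 (SE, adjusted p = 7.62e-08). Laptm5 (ENSMUSG00000028581, chr4:130913125-130936141, plus strand), a lysosomal protein of blood-derived cells, ranged from 161 to 228 CPM in controls (median 206) and from 516 to 675 CPM in ALI (median 554). Here too no value was shared, and the change was 1.52 ± 0.099 (SE, adjusted p = 7.78e-08). Npc1, which exports cholesterol from the lysosome, ranged from 49.0 to 88.6 CPM in controls (median 86.0) and from 124 to 196 CPM in ALI (median 151). Its groups did not overlap, control 5 was the lowest sample, and the change was 0.96 ± 0.14 (SE, adjusted p = 9.58e-05).

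The structural proteins of the lysosomal membrane changed less. Lamp1 (ENSMUSG00000031447, chr8:13159161-13175338, plus strand), whose promoter with 4 E-boxes is shown above, ranged from 718 to 855 CPM in controls (median 805) and from 954 to 1142 CPM in ALI (median 1101). Every ALI sample was above every control, with ALI 3 the lowest, and the change was 0.44 ± 0.079 (SE, adjusted p = 0.000473). On the opposite strand 9.31% of its exon bases are shared with Grtp1, so the value of Lamp1 is also uncertain. Lamp2, its relative that also serves chaperone-mediated autophagy, changed by 0.45 ± 0.078 (SE, adjusted p = 0.000374), and Scarb2, which carries glucocerebrosidase to the lysosome, by 0.33 ± 0.082 (SE, adjusted p = 0.00515). Mcoln1, a calcium channel of the lysosome with 2 E-boxes, ranged from 39.4 to 47.9 CPM in controls (median 44.1) and from 31.9 to 48.2 CPM in ALI (median 41.8). Its ALI samples lay on both sides of the controls, and the change was -0.089 ± 0.097 (SE, adjusted p = 0.508) with a 95% interval of -0.30 to 0.12.

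**Figure D3:**
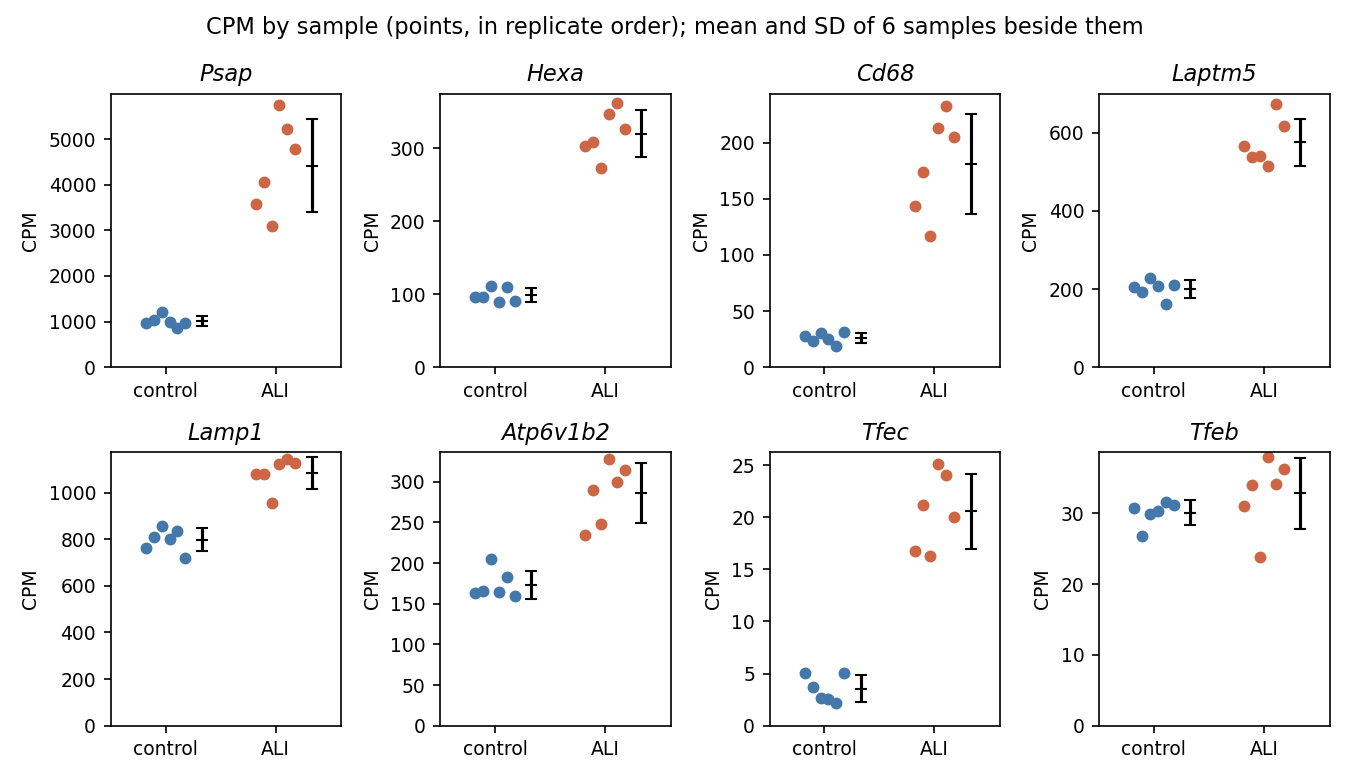
CPM (y axis, from 0) of 8 lysosomal genes in each sample (points, in replicate order within control and ALI), with the mean and SD of 6 samples beside them. Psap, Hexa, Cd68, Laptm5, Lamp1, Atp6v1b2 and Tfec show no overlap between groups, while the Tfeb values overlap.

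Some of the proton pump genes rose. In the V1 sector Atp6v1a and Atp6v1b2, which form the ATP-splitting ring, and Atp6v1c1, a stator subunit, rose. Atp6v1b2 (ENSMUSG00000006273, chr8:69088646-69113711, plus strand) ranged from 159.7 to 205 CPM in controls (median 165) and from 235 to 328 CPM in ALI (median 295). Its groups did not overlap, and the change was 0.72 ± 0.099 (SE, adjusted p = 5.28e-05). Atp6v1c1 changed by 0.67 and Atp6v1a by 0.51, both without overlap. The other 3 V1 genes did not pass the test. Atp6v1d, of the central stalk, had a change of 0.15 ± 0.14 (SE, adjusted p = 0.427), Atp6v1h, a regulatory subunit, 0.15 ± 0.13 (SE, adjusted p = 0.381), and Atp6v1e1, a peripheral stalk subunit, -0.021 ± 0.15 (SE, adjusted p = 0.929). For each of these 3 genes control 5 was the highest of all 12 samples, and without it Atp6v1d was called higher at 0.31 (adjusted p = 0.00385) and Atp6v1h at 0.29 (adjusted p = 0.00711). Atp6v1e1 had a value of 0.15 without control 5 and was not called.

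In the V0 sector Atp6v0d1, which couples the stalk to the membrane ring, rose by 0.46 ± 0.094 (SE, adjusted p = 0.00128) without overlap. Atp6v0a1, one of the subunits that hold the proton channels, had a change of 0.12 ± 0.098 (SE, adjusted p = 0.359), with a 95% interval of -0.088 to 0.33. Of the accessory proteins Atp6ap2 (ENSMUSG00000031007, chrX:12587801-12617049, plus strand), also known as the prorenin receptor, ranged from 86.0 to 111 CPM in controls (median 96.8) and from 137 to 184 CPM in ALI (median 153). Every ALI sample exceeded every control, and the change was 0.68 ± 0.092 (SE, adjusted p = 4.73e-05). Atp6ap1, which helps assemble the pump, had a change of 0.033 ± 0.079 (SE, adjusted p = 0.776), with a 95% interval of -0.14 to 0.20 and overlapping groups.

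Atp6v0c (ENSMUSG00000024121, chr17:24163866-24169702, minus strand), the proton-carrying ring subunit, had the lowest CPM of the 43 genes in ALI and the lowest in controls, at 26 to 79 counts per control and 87 to 132 counts per ALI sample. Control 2, at 4.89 CPM, lay above the lowest ALI sample, at 4.29 CPM, and the change was 0.88 ± 0.26 (SE, adjusted p = 0.0164). The table also lists Atp6v0c-ps2 (chr6:37806086-37806550, plus strand, GRCm38, GENCODE M21), a processed pseudogene, with 795 to 1222 counts in controls and 1690 to 2407 in ALI. Its 465 bases differ from the coding sequence of Atp6v0c at 1 position, T111C, with the Atp6v0c base first and bases counted from 1 at the coding start. Of the 416 windows of 50 bases in the pseudogene, 88.0% also occur in Atp6v0c. The first 150 bases of both are shown 5′ to 3′ with the base that differs in capitals, because a read that misses that base is the same in both.
Atp6v0c, bases 1 to 150: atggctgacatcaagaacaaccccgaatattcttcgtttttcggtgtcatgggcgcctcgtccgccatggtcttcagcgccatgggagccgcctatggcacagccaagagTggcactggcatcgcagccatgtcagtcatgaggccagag
Atp6v0c-ps2, bases 1 to 150: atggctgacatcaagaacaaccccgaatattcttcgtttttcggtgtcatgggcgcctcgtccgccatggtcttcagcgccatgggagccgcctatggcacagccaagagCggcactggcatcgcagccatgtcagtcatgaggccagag

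Atp6v0c held 2.16 to 7.65% of the CPM of the pair in controls and 4.07 to 5.44% in ALI. The pseudogene changed by 0.98 ± 0.11 (SE, adjusted p = 6.89e-06). Summed, the pair went from 62.0 ± 4.25 to 121.6 ± 20.4 CPM, a change of 0.97 ± 0.11 (adjusted p = 5.95e-06), a sum chosen after the data were seen. The treatment of reads that match several genes is not stated, so the level of Atp6v0c itself is uncertain. The plot of both shows the pseudogene above Atp6v0c in all 12 samples.

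**Figure D4:**
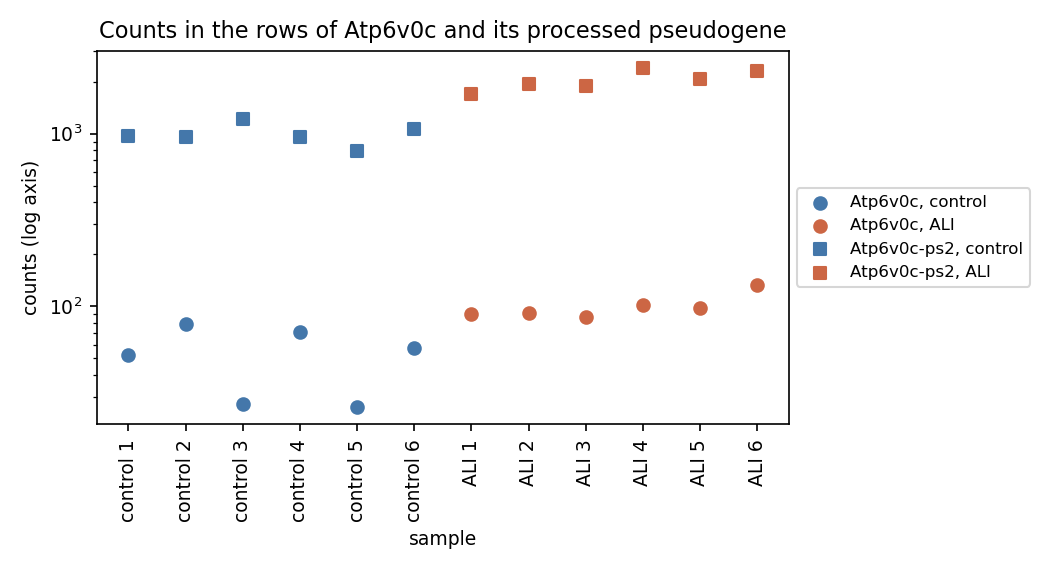
Counts (y axis, log scale) of Atp6v0c (circles) and its processed pseudogene Atp6v0c-ps2 (squares) in each of the 12 samples (x axis). The pseudogene holds 795 to 2407 counts per sample and Atp6v0c 26 to 132.

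Of the transcription factors Tfec rose and Tfeb did not pass the test. Tfec (ENSMUSG00000029553, chr6:16833373-16898441, minus strand), a MiT/TFE member known in macrophages, ranged from 2.17 to 5.07 CPM in controls (median 3.20) and from 16.3 to 25.1 CPM in ALI (median 20.6). The groups did not overlap, and the rise was 5.77-fold, a change of 2.53 ± 0.22 (SE, adjusted p = 6.99e-07). Tfeb (ENSMUSG00000023990, chr17:47737030-47792419, plus strand), the best-known activator of lysosomal genes, ranged from 26.8 to 31.6 CPM in controls (median 30.6) and from 23.8 to 38.0 CPM in ALI (median 34.1). ALI 3 was the lowest of all 12 samples and ALI 4 the highest, so the groups overlapped, and the change was 0.13 ± 0.10 (SE, adjusted p = 0.370) with a 95% interval of -0.097 to 0.35. The family members outside the list, Mitf and Tfe3, rose by 1.21 ± 0.13 (SE, adjusted p = 6.13e-06) and 0.38 ± 0.070 (SE, adjusted p = 0.000600), without overlap. Only transcripts were measured, and TFEB is known to be controlled by its location in the cell.

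Levels per kilobase of the deposited gene length order the 43 genes within a group. Psap led in controls at 367 ± 40.1 CPM per kb, followed by Lamp1 at 298 ± 18.5 and Npc2 at 142 ± 30.7. In ALI the order of these 3 genes was the same, at 1608 ± 370.1, 405 ± 25.6 and 201 ± 18.1 CPM per kb. Hexa moved from place 9 to place 4, Cd68 from 22 to 6 and Acp5 from 30 to 18, while Ids moved from 10 to 22. The control place of Acp5 rested on control 5, without which it was 34, at 6.43 in place of 11.2 CPM per kb. Atp6v0c, Galc, Idua and Tfec held the 4 lowest places in both groups.

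The share of a gene among its relatives, taken per length within each sample and so free of library scaling, was compared for 5 sets by two-sided exact permutation of 6 against 6 samples, with p adjusted over the 5 shares. The choice of the shares was made with earlier results known, and they use the same samples as the fold changes. Atp6v0d2, the d subunit known from osteoclasts and macrophages, rose from 17.3 ± 4.53% to 43.9 ± 2.37% of the sum with Atp6v0d1 (exact p = 0.00216, adjusted p = 0.00361). Tfec rose from 10.6 ± 3.39% to 38.8 ± 2.65% of the sum with Tfeb, with the same p. Tcirg1, the a3 subunit, rose from 29.9 ± 3.52% to 45.4 ± 3.54% of the sum with Atp6v0a1 and Atp6v0a2, again with the same p, the smallest this design can give. In these 3 shares no ALI sample overlapped a control.

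Plbd1 rose from 50.8 ± 12.1% to 68.7 ± 1.58% of the sum with Plbd2 (exact p = 0.0152, adjusted p = 0.0189), with control 5 at 75.5%, above all ALI samples. The share of Lamp1 in the sum with Lamp2 was 87.7 ± 0.928% in controls and 87.7 ± 0.730% in ALI (exact p = 0.855), a difference within the spread between samples. The level of this share depends on the deposited lengths, 2675 bases for Lamp1 and 9552 for Lamp2.

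**Figure D5:**
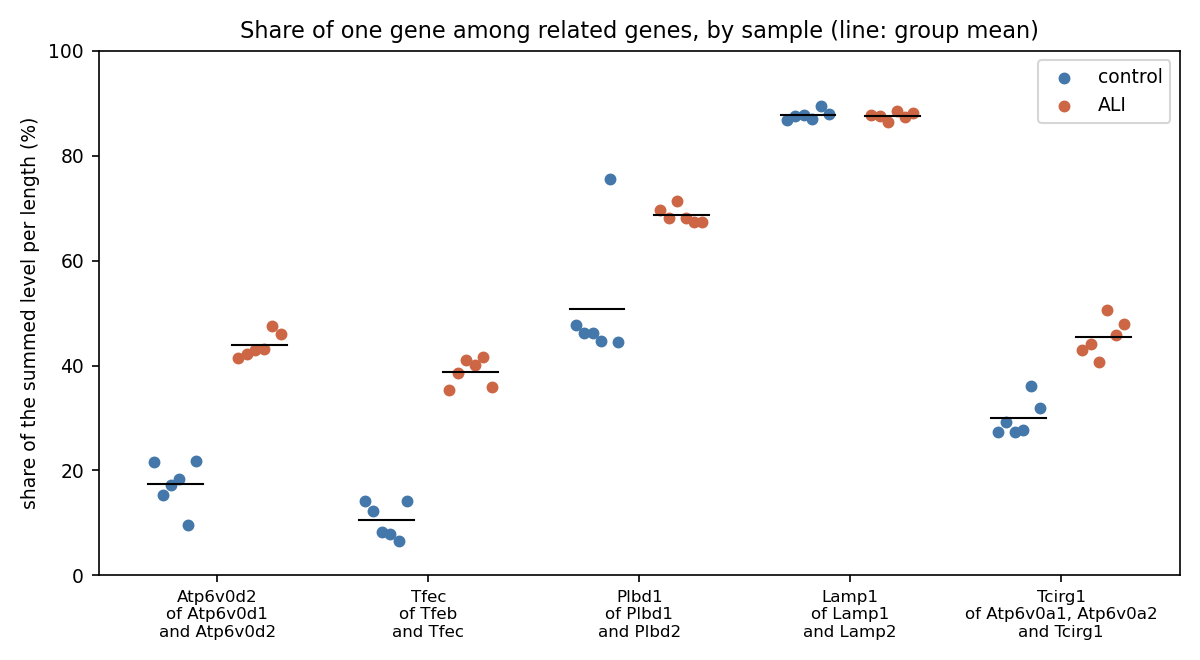
Share (y axis, percent of the level per length summed over the named genes) of 1 gene among its relatives in each sample, controls and ALI side by side, with lines for group means. The shares of Atp6v0d2, Tfec and Tcirg1 do not overlap between groups, 1 control (control 5, 75.5%) lies above the ALI samples for Plbd1, and the Lamp1 shares coincide.

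Genes of the same pathways outside the list were counted in 5 further lists. Of 26 other hydrolases and activators 20 rose (76.9%, all genes 18.9%) and 2 fell (7.69%, all genes 17.7%), with a median change of 0.72. They include Gm2a, an activator that lifts gangliosides out of the membrane for their hydrolase, at 1.29 ± 0.095 (SE, adjusted p = 1.94e-07). Ctsa, the cathepsin that protects Neu1 and Glb1, changed by 1.16 and Prcp, a carboxypeptidase, by 1.13. The genes that fell were Hyal1, a hyaluronidase, at -0.70 and Arsk, a sulfatase, at -0.41. Hyal1 and Arsk were named after their values were seen.

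Of 23 other membrane proteins tested 11 rose (47.8%, all genes 18.9%) and 6 fell (26.1%, all genes 17.7%), with a median of 0.21. Slc15a3, a peptide and histidine transporter, changed by 2.10 ± 0.18 (SE, adjusted p = 6.88e-07), and the nucleoside transporter Slc29a3 by 1.41. Tpcn2, a cation channel, rose by 1.09 and its relative Tpcn1, named after its value was seen, fell by 0.63 (adjusted p = 0.000482). Sidt2, of the lysosomal membrane, rose by 0.54.

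Of 12 other V-ATPase subunits tested 3 rose and 2 fell, with a median of 0.10, and the 41.7% called were near the 36.6% of all genes. Atp6v0d2 changed by 2.37 ± 0.18 (SE, adjusted p = 3.00e-07) and Tcirg1 by 1.18 ± 0.13 (SE, adjusted p = 9.39e-06), both estimates above those of the 11 pump genes described earlier. Atp6v0a2 rose by 0.34, while Atp6v1c2 and Atp6v0e2, 2 alternative subunits, fell by 0.54 and 0.46. Without control 5, 6 of these 12 genes were called higher.

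Of 11 genes that sort enzymes to the lysosome 8 rose (72.7%, all genes 18.9%) and 1 fell (9.09%, all genes 17.7%). Their median was 0.40. Gnptab, which begins the mannose phosphate tag, changed by 1.01 ± 0.098 (SE, adjusted p = 2.02e-06), Nagpa, which uncovers it, by 0.51, and M6pr, a receptor for it, by 0.50. Cln8, which helps enzymes leave the endoplasmic reticulum, changed by 0.88. The gene that fell was Gnptg, which encodes the gamma subunit of the same transferase as Gnptab, at -0.33 ± 0.079 (SE, adjusted p = 0.00485). Of 17 MiT/TFE partners and nutrient-signalling genes 6 rose and 2 fell, with a median of 0.0044. The 47.1% called stand beside 36.6% of all genes, the 35.3% higher beside 18.9% and the 11.8% lower beside 17.7%. Fnip2, a partner of folliculin, changed by 1.06, and Rragd, a GTPase of nutrient sensing, by 0.81. The falls, Rragb and Ppargc1a, had adjusted p of 0.0470 and 0.0456, and neither was called lower without control 1.

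Marker genes of the cell types in the tissue were counted in the same way, against 18.9% higher and 17.7% lower over all genes. Of 9 macrophage markers 8 rose, and their summed level was 4353 to 4643 CPM in controls and 10377 to 17013 CPM in ALI. Lyz2, lysozyme, made up 87.9 to 94.5% of this sum. Without it, an exclusion decided with the values known, the sum was 254 to 369.6 CPM in controls and 1025 to 1562 CPM in ALI, lowest in ALI 3 and highest in ALI 5. Adgre1 changed by 3.68 and C1qb by 2.98, and Mertk had a value of 0.0026 and was not called. The summed level of the 43 lysosomal genes was 6121 to 7091 CPM in controls and 10807 to 14918 CPM in ALI, lowest in ALI 3 and highest in ALI 4. Without Psap, its highest sample was ALI 5. Among ALI samples ALI 3 was the lowest for 26 of the 43 genes. The part of macrophage number in the rise of these genes was not tested.

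Other marker lists behaved in several ways. Of 7 alveolar macrophage markers 5 rose, and Car4, which endothelium also expresses, fell. Their sum was 6282 CPM in control 5, through Fabp4, 371 to 411 CPM in the other 5 controls and 831 to 1091 CPM in ALI. Control 5 was also the sample with 4714 CPM of adipose tissue markers. Of 5 neutrophil markers tested 5 rose, with sums of 72.9 to 124 CPM in controls and 142 to 343 CPM in ALI, while Ly6g was near 0 in both groups. Of 4 monocyte markers 3 rose, with sums of 53.5 to 65.8 CPM in controls and 178 to 265 CPM in ALI. Of 4 osteoclast-type markers tested 2 rose, Ctsk by 3.94 and Dcstamp by 3.33, with sums of 73.9 to 98.3 CPM in controls and 268 to 593 CPM in ALI, and Oscar and Ocstamp were near 0 in both groups. Their part in the values of Acp5 and Atp6v0d2 was not tested.

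Of 7 alveolar type 2 markers 2 rose, 1 fell and 4 were not called, with the 42.9% called near the 36.6% of all genes. Their sums were 21376 to 28381 CPM in controls and 19172 to 24434 CPM in ALI. Lung markers were thus abundant in every sample. Of the endothelium markers 6 of 6 fell, as did 4 of 5 alveolar type 1 markers. Of 5 fibroblast markers 2 rose and 1 fell, and 2 of 3 club cell markers fell. Of 6 lymphocyte markers 2 fell and 0 rose (33.3% lower, all genes 17.7%), with sums of 92.8 to 167 CPM in controls and 45.2 to 121 CPM in ALI. Total counts were 15707937 to 19706494 per sample.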

How the data were processed

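Per the labels' protocols, the 12 lung samples went through TRIzol extraction, NEBNext Ultra library preparation and sequencing on the NovaSeq platform. The authors deposited raw counts, as whole numbers for each gene, and gene lengths in bases. Tools in the submitters' processing notes are HISAT2, fastp and featureCounts, with the build GRCm38 (mm10). Versions, strand setting and the handling of reads matching several genes are not given in the sources used here. All 12 columns were matched to samples by title, and 0 columns were left over. Depth was 15707937 to 19706494 counts. The chi-square of sample pairs within groups, 6.91 to 239 times its degrees of freedom, exceeded sampling noise, so each counted as 1 sample. Pairs with control 5 held the values of 213 to 239. This check cannot tell separate animals from separate libraries of 1 animal.

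Counts were analysed in R 4.3.3 with edgeR 4.0.16: filterByExpr (minimum count 10), TMM scaling, robust quasi-likelihood F test without covariates, Benjamini-Hochberg adjustment over 16185 genes and calls at an adjusted p under 0.05. CPM uses the TMM-scaled library. Shares used scipy 1.17.1. Alternatives included DESeq2 1.42.0 and limma-voom (limma 3.58.1). The code was tested on simulated data. Gene coordinates are those of GENCODE M21 on GRCm38, taken by gene ID. Promoters use RefSeq start sites, which can differ from the M21 gene start. The stretch shown for Atp6v1a lies within the M21 gene, and those for Naglu and Mcoln1 lie partly within it. Deposited lengths equalled the M21 exon union for 41 of the 43 genes. The exceptions were Lipa (2969 bases deposited, 6780 in M21) and Npc1 (10725 and 11317).

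The 43 genes, the further lists and the tests were chosen with earlier results of these data known. Full values are given for the called genes with the largest changes, up to 3 in each class, and for Lamp1, Tfeb, Tfec and Atp6v0c. Of each further lysosomal list, up to 4 called genes with the smallest p are named, and Atp6v0d2, Tcirg1, Mitf and Tfe3 whatever the result. A gene that this takes is not reported here. Full ranges for other genes were added where samples overlapped or stood apart.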

Additional observations from a re-analysis of the deposited data

Results flagged for a closer look

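In groups of 6, a sample was singled out when its gap to the nearest other sample took most of the group's range (Dixon's limit at 95%), a limit that chance passes in about 1 in 20 groups. Of 146 groups tested 20 did so, and 14 of these were control 5.

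Control 5 lay below the other 5 controls for Man2b1 (107.9 CPM), Tpp1 (131.4 CPM), Npc1 (49.0 CPM), Atp6v0a1 (108.1 CPM) and Atp6v1a (151.9 CPM), and for the summed level of the 21 hydrolases (1505 CPM, with the others at 1642 to 1719 CPM). It lay above them for Plbd1 (91.9 CPM), Acp5 (71.0 CPM), Atp6v1d (79.5 CPM), Atp6v1e1 (157.6 CPM) and Atp6v1h (92.0 CPM), and for the share of Plbd1 in the sum with Plbd2 (75.5%). Among genes of the further lists it was low for Fnip2 (34.2 CPM) and Slc29a3 (16.4 CPM).

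ALI 3 lay below the other 5 ALI samples for Plbd2 (84.4 CPM) and Lamp1 (953.8 CPM). ALI 5 lay above the others for Lamp2 (592.5 CPM) and Mitf (54.2 CPM). Control 2 was low for Tfeb (26.8 CPM, with the others at 29.9 to 31.6 CPM), and control 3 was high for Nagpa (34.3 CPM, with the others at 32.3 to 32.9 CPM).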

How the results depend on the processing

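Over 24 alternatives, 33 to 36 of the 43 genes were called higher, with 33 to 36 when 1 sample was left out. Of 1032 pairs of a gene and an alternative, 1005 kept direction and side of the threshold, 11 lost a call (all Idua, 0.28 for example under upper-quartile factors, adjusted p = 0.0572), 9 gained one and 7 changed sign. The gains were Ids lower and Atp6v1d and Atp6v1h higher, under limma-voom, without control 5 and without control 5 and ALI 2.

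Calls of lower among the 43 genes and among hydrolases moved from 0 to 1 under limma-voom and without control 5 and ALI 2, and were 0 to 1 when 1 sample was left out. Other V-ATPase subunits called higher moved from 3 to 7 under limma-voom and 5 without both samples, and were 3 to 6 with 1 sample left out. Sorting genes called lower moved from 1 to 2 under limma-voom and without both, and were 1 to 2 with 1 left out. Nutrient-signalling genes called lower moved from 2 to 1 under library size alone, limma-voom, removal of ribosomal protein, haemoglobin and mitochondrial genes, and without both samples, to 0 with no filter, and to 0 to 1 with 1 sample left out. The uncalled change of Atp6v1e1, -0.021, was 0.029 under library size alone, 0.18 under limma-voom, 0.15 without control 5, 0.0012 without ALI 1, 0.0031 without ALI 3 and 0.15 without both, with a range of -0.079 to 0.15 when 1 sample was left out. The Lamp1 share difference of -0.091 percentage points was 0.238 without control 5, 0.149 without ALI 3 and 0.240 without both, and -0.278 to 0.238 with 1 sample left out. The cause of these shifts was not tested.

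With the replicate number as a block, 33 of the 43 genes were called higher and 0 lower, other membrane proteins called lower moved from 6 to 3 and nutrient-signalling genes called lower from 2 to 0, and Atp6v1e1 was at 0.018. Over all genes the block gave 4822 calls in place of 5922. Deviations of same-numbered samples had correlations of -0.27 to 0.27, with 1 of 6 best with its own number. The labels do not state a pairing, and weak correlations cannot exclude one. Scaling moved the median change of all genes to between -0.088 and -0.029. Counts were low for Atp6v0c, at 26 to 132 per sample.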
